A study of Mus musculus with 12 samples.

Results

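The Igf binding proteins Igfbp1 to Igfbp7 and the Igf2 receptor Igf2r were followed by name in a liver RNA-seq count table, as 8 genes of 55401 in the table, and all 8 were among the 13205 genes with enough counts to be tested. The libraries came from 12 female mice at 15 weeks of age, 6 iTgMir483 and 6 Control, on a C57BL/6J background. The iTgMir483 mice carried an extra copy of Mir483 at the Rosa26 locus under a Tet-off switch, which doxycycline keeps silent, and a CMV-Cre allele, active in all tissues, served to delete the Neo cassette of the transgene. The labels of all 12 mice name a CMVxmiR cross. A figure legend in the study's supplement describes it as heterozygous transgenic males with dams homozygous for CMV-Cre. By that cross, Control littermates would carry CMV-Cre as well but not the transgene, which also encodes the tetracycline transactivator. The genotypes of the single Control mice are not given in the sources used here. Doxycycline was in the drinking water throughout pregnancy and was withdrawn afterwards, so mice of both groups were exposed in utero and the transgene was free to act from birth in all tissues, liver being only one of them.

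The Igf binding proteins carry Igf1 and Igf2 in blood and tissue fluid. They hold the ligands away from the Igf1 receptor, prolong their life in the circulation, or bring them to cell surfaces. In liver, hepatocytes secrete Igfbp1, Igfbp2 and Igfbp4, whereas Igfbp3 comes mainly from the non-parenchymal cells and forms a large circulating complex with Igf1 and the acid-labile subunit Igfals. Igfbp7 binds Igfs weakly and is made by stellate and endothelial cells. Igf2r, the cation-independent mannose 6-phosphate receptor, clears Igf2 by endocytosis and sorts lysosomal enzymes, and it is an imprinted gene expressed from the maternal allele, across which the non-coding antisense RNA Airn is transcribed from the paternal one.

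Mir483 gives rise to 2 mature microRNAs, and their sequences are shown because matches to bases 2 to 8 were sought in the binding protein transcripts. These bases are the part read first in target recognition. The capitals mark that seed. The sequences are from RefSeq (GRCm38.p6, minus strand), with miR-483-3p at chr7:142654932-142654952 and miR-483-5p at chr7:142654968-142654989.
miR-483-3p: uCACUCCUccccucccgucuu
miR-483-5p: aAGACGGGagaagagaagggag

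A 7-base match to the miR-483-3p seed, AGGAGTG on the transcript strand, was found in the annotated 3′ UTRs of Igfbp3 and Igfbp5, once in each, and in none of the other 6. It was found in 12.6% of the 12099 tested genes that had an annotated 3′ UTR. No match to the miR-483-5p seed, CCCGTCT, was found in any of the 8, against 3.26% of all 3′ UTRs. Only full 7-base matches in the longest annotated 3′ UTR of each gene were sought. Shorter matches and other parts of the transcripts were not searched, so a gene without a match could still be bound. The Igfbp3 match lay in the last exon at chr11:7206591-7206597 and the Igfbp5 match in the last exon at chr1:72858859-72858865, both on the minus strand of GRCm38. The match in the 3′ UTR of Igf1 at chr10:87930908-87930914, on the plus strand, is printed beside them for comparison. The capitals mark the 7 matched bases.
Igfbp3: aacaggaaagAGGAGTGgcttgtctga
Igfbp5: agcttaagagAGGAGTGagccaaggag
Igf1: catcgtctttAGGAGTGtttgtttaaa

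Promoter sequence is shown for the 2 genes with the largest fold changes among the 8, Igfbp1 and Igfbp2, which both encode secreted hepatocyte products. Each window runs from 250 bases before to 50 bases after a RefSeq start site in GRCm38.p6, on the plus strand. The Igfbp1 window, chr11:7197537-7197836, was 54.3% G and C and held the Foxo-type insulin response element CAAAACA at position -108, in capitals. Searched on both strands, that motif was present in 6.28% of 32851 promoter windows of the same length. The Igfbp2 window, chr1:72824230-72824529, was 67% G and C and held GGGCGG, the core of an Sp1 site, 3 times, in capitals, at positions -113, -98 and -37. GGGCGG was present in 35.7% of the windows. CAAAACA was absent from the windows of the other 7 genes, and GGGCGG was also present in those of Igfbp7 and Igf2r. These are matches of letters, and binding was not measured.
Igfbp1 promoter: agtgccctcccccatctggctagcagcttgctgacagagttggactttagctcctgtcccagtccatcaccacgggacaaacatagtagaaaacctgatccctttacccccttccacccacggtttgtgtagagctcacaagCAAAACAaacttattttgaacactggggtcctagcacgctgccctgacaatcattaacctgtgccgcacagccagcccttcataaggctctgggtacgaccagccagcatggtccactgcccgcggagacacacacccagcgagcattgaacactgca
Igfbp2 promoter: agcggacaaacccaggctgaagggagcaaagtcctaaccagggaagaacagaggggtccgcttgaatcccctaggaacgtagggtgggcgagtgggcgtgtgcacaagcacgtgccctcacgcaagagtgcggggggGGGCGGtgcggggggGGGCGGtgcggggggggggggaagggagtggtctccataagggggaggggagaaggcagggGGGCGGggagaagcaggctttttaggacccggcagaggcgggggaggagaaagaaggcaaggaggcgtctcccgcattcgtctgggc

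Sequencing gave between 12244123 and 30431286 counts per Control library and between 12415140 and 15846175 per iTgMir483 library. Mir483 itself was listed at 0 counts in all 6 Control livers, where a count of 0 still allows up to 3 counts per library, and at 318 to 761 counts in the iTgMir483 livers, or 37.1 ± 13.1 CPM, counts scaled to the library's total (SD, n = 6). These are reads of the transgene's primary transcript in an mRNA library and do not measure the mature microRNAs. The hepatocyte genes Alb, Apob and Hnf4a were detected in all livers. All CPM values are scaled by TMM normalization. Fold changes are iTgMir483 over Control from edgeR's quasi-likelihood test with the standard error (SE). A gene is called when its p, adjusted over all genes tested by Benjamini and Hochberg's method, is under 0.05 and its fold change over 1.5.

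Of the 8 genes, 1 was called, Igfbp2, and it was lower in iTgMir483 livers. None was called higher by edgeR, DESeq2 or limma-voom, and each of these tools called Igfbp2 alone. For the background, 11.1% of all genes tested were called, 8.41% as higher and 2.73% as lower, so 1 call in 8 is close to the share of genes called at large. With the adjusted p alone and no limit on fold, edgeR again passed 1 of the 8, and 18.6% of all genes. DESeq2 passed 3 of the 8 on that rule, Igfbp2, Igfbp4 (adjusted p 0.0359) and Igf2r (adjusted p 0.0321), of which the last 2 missed the fold limit. The share of all genes that DESeq2 passed on that rule was not counted. The 18.6% is edgeR's, so it is no background for these 3. At an unadjusted p under 0.05 there were 5 of the 8, namely Igfbp1, Igfbp2, Igfbp4, Igfbp7 and Igf2r, and 33.4% of all genes. The median log2 fold change of the 8 was 0.16, with 5 positive and 3 negative, and that of all genes tested was 0.0058. In none of the 8 were the 2 groups fully apart, whereas 7.92% of all genes had no overlap between the 6 iTgMir483 and the 6 Control values.

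**Figure D1:**
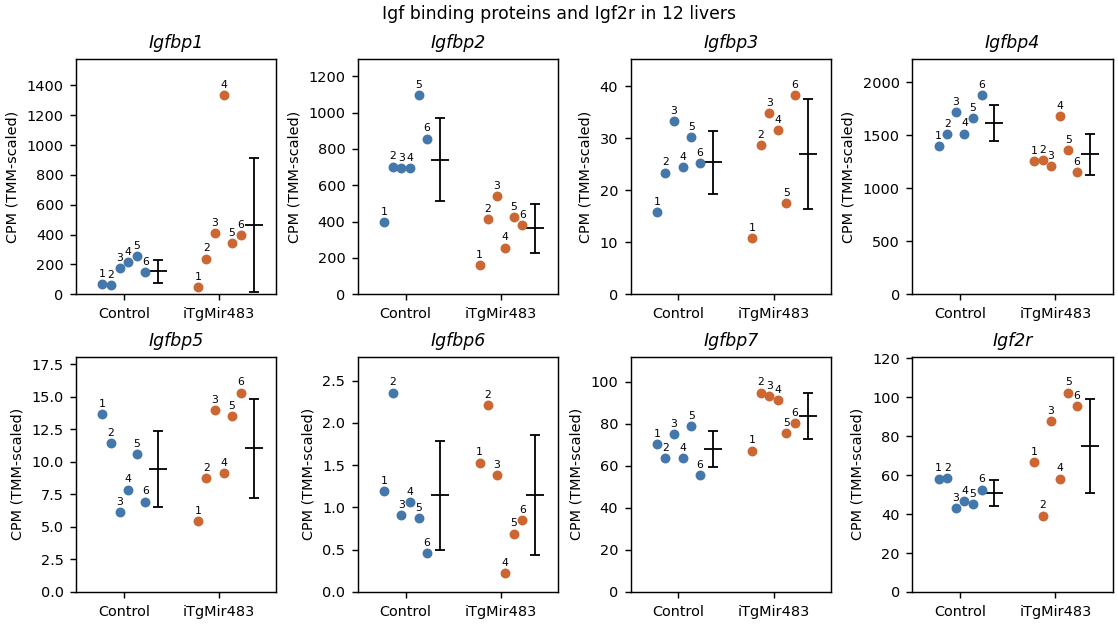
CPM of the 8 genes in each of the 12 livers, on linear axes from 0, with replicate numbers above the points and the mean ± SD of each group (n = 6) at its right. Igfbp2 lies lower in iTgMir483 livers with 3 of 6 below all Controls, and Igfbp1 in iTgMir483 replicate 4 stands at 1335 CPM against at most 412.2 in the other 5.

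Igfbp2, which binds Igf1 and Igf2 and can tether them to the cell matrix, maps to chr1:72824503-72852474 on the plus strand. Its level was 398.2 CPM in the lowest Control liver, 698.2 at the median and 1097 in the highest, and 161.1, 398.6 and 538.3 CPM in the iTgMir483 livers. Of the iTgMir483 livers, 3 were below every Control, and the other 3 were above 1 Control liver, replicate 1, and below the remaining 5. The log2 fold change was -1.03 ± 0.27 (SE, 95% interval -1.61 to -0.45), a 2.04-fold lower level, with an adjusted p of 0.0175 by edgeR. The call was made under all 19 other settings tried, with log2 fold changes from -1.17 to -0.88 and adjusted p between 0.00116 and 0.0413.

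Igfbp1, the acutely regulated binding protein that insulin represses and fasting or cell stress raises, maps to chr11:7197782-7202546 on the plus strand. Control livers had 61.0 CPM at the lowest, 162.6 at the median and 254.6 at the highest, and iTgMir483 livers 46.7, 370.9 and 1335 CPM. Of the 6 iTgMir483 livers, 4 were above every Control and 1 was below every Control. The spread in the iTgMir483 group was the widest of the 8 genes, 28.6-fold from lowest to highest against 4.18-fold in Controls. The mean was 462.4 ± 448.3 CPM (SD, n = 6) against 154.2 ± 78.5, a log2 fold change of 1.58 ± 0.58 (SE, interval 0.35 to 2.82), and with an adjusted p of 0.0691 by edgeR it was not called.

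A pair of libraries moved that value. Without iTgMir483 replicate 4, the liver at 1335 CPM, the log2 fold change of Igfbp1 was 0.90 with an adjusted p of 0.211. Without iTgMir483 replicate 1, the liver at 46.7 CPM, it was 1.82 with an adjusted p of 0.0137, which passes. Replicate 1 was also the lowest of its group for Igfbp2 and Igfbp3 in both groups, and leaving out replicate 1 of both groups gave 1.67 with an adjusted p of 0.0209. In iTgMir483 replicate 4 the Kupffer cell and macrophage markers summed to 1607 CPM against 552.1 to 915.6 in the other 5 iTgMir483 livers, and their part in its Igfbp1 level was not tested.

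Igfbp4, which mostly restrains Igf action until it is cleaved, maps to chr11:99041244-99054392 on the plus strand and varied least of the 8 among Controls. Control livers had 1401 CPM at the lowest, 1591 at the median and 1881 at the highest, and iTgMir483 livers 1150, 1259 and 1683 CPM. In iTgMir483 mice, 5 livers were below every Control, while replicate 4 lay within the Control range. The log2 fold change was -0.29 ± 0.13 (SE, interval -0.56 to -0.02) with an adjusted p of 0.119 by edgeR, and Igfbp4 was not called.

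Igfbp3, the principal carrier of Igf1 in the circulation, lies next to Igfbp1 at chr11:7206086-7213923 on the minus strand. Its level in Control livers was 15.8 CPM at the lowest, 24.8 at the median and 33.3 at the highest, and in iTgMir483 livers 10.8, 30.1 and 38.3 CPM. The groups overlapped on both sides. By edgeR the 2 groups differed by 0.09 ± 0.26 on the log2 scale (SE, adjusted p 0.844), and the interval of -0.46 to 0.64 leaves room for changes of about the fold limit in the upward direction.

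Igfbp5 and Igfbp6 are better known from connective tissue, muscle and nerve than from liver, and both were low here. Igfbp5, at chr1:72857932-72874884 on the minus strand, had 9.44 ± 2.93 CPM in Controls and 11.0 ± 3.82 in iTgMir483 livers (SD, n = 6), a log2 fold change of 0.22 with a standard error of 0.25 (interval -0.31 to 0.76, adjusted p 0.566 by edgeR). Igfbp6, which prefers Igf2 over Igf1 and maps to chr15:102144362-102149511 on the plus strand, had 5 to 41 counts per Control library and 3 to 31 per iTgMir483 library. At that depth its log2 fold change of -0.02 ± 0.44 had an interval from -0.95 to 0.91, that is from 0.518 to 1.88 times the Control level, and a change within it was not detectable.

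Igfbp7, at chr5:77349240-77408041 on the minus strand, had 55.6 CPM in the lowest Control liver, 67.0 at the median and 79.0 in the highest, and 67.3, 85.8 and 94.8 CPM in the iTgMir483 livers. The groups overlapped, with 4 iTgMir483 livers above every Control. The log2 fold change was 0.30 ± 0.11 (SE, interval 0.07 to 0.54) with an adjusted p of 0.0679 by edgeR, a 1.23-fold difference that is under the fold limit as well. The gene overlaps the antisense gene Gm34648 by 7085 bases and Polr2b by 85 bases on the opposite strand, and since it is not stated whether the counting used strand, reads of these genes cannot be told apart there.

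Igf2r, at chr17:12682406-12769664 on the minus strand, had 43.0 CPM in the lowest Control liver, 49.7 at the median and 58.3 in the highest, and 39.2, 77.3 and 102.4 CPM in the iTgMir483 livers. Again 4 iTgMir483 livers were above every Control, replicate 4 lay within the Control range, and replicate 2 was below it. The log2 fold change was 0.57 ± 0.19 (SE, interval 0.15 to 0.98), 1.48-fold, with an adjusted p of 0.0543 by edgeR, just outside both limits of the call. Without iTgMir483 replicate 2 it was 0.70 with an adjusted p of 0.00697, and without iTgMir483 replicate 4 it was 0.63 with an adjusted p of 0.0414, and both would be called.

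Airn, the RNA that runs antisense to Igf2r from the paternal allele and overlaps the Igf2r gene by 28354 bases, was called higher in iTgMir483 livers. It had 2.16 ± 0.859 CPM in Controls and 6.45 ± 3.40 in iTgMir483 livers (SD, n = 6), with 5 of the 6 above every Control, a log2 fold change of 1.56 ± 0.36 (SE) and an adjusted p of 0.00905 by edgeR. Livers with the most Igf2r, iTgMir483 replicates 3, 5 and 6, were also the 3 with the most Airn. Whether the counting separated the strands is not stated, so reads of the 2 genes in the shared stretch cannot be told apart. Of the 5 tested genes of the Igf2r domain, Airn was the only one called, and the median log2 fold change was 0.13.

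**Figure D2:**
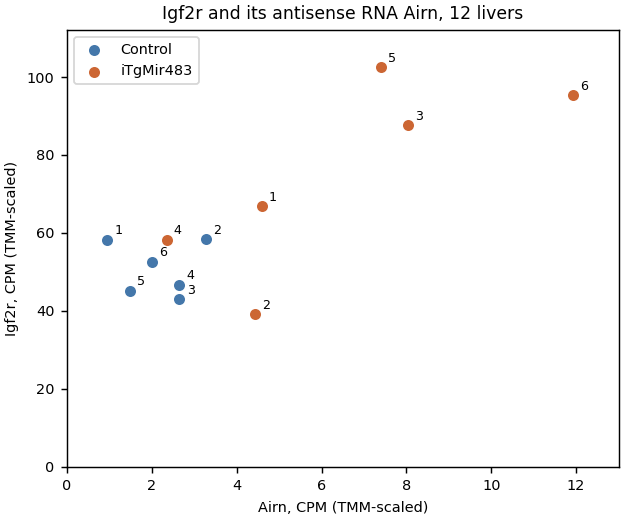
Igf2r against Airn in CPM for the 12 livers, with replicate numbers beside the points and linear axes from 0. The iTgMir483 replicates 3, 5 and 6 have between 87.7 and 102.4 CPM of Igf2r and more Airn than any Control, whereas replicates 2 and 4 have Igf2r at 39.2 and 58.3 CPM.

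The 8 genes were next set beside the rest of the Igf axis, that is the ligands, the signalling receptors, the acid-labile subunit and the growth hormone receptor. Of the 5 tested, 1 was called higher and 2 lower, with a median log2 fold change of -0.14. Igf1, the growth factor that the binding proteins carry, had 314.7 CPM in the lowest Control liver, 377.1 at the median and 575.8 in the highest, and 91.5, 133.7 and 211.6 CPM in the iTgMir483 livers. The groups did not overlap, and Igf1 fell by 1.51 on the log2 scale (SE 0.20) with an edgeR adjusted p of 0.000371. Igfals, which stabilizes the circulating complex of Igf1 with Igfbp3, fell by 0.81 on the log2 scale (SE 0.19, adjusted p 0.00985 by edgeR). Igf1r, the signalling receptor, rose from 4.42 ± 0.663 to 9.56 ± 2.02 CPM (SD, n = 6), or by 1.11 on the log2 scale (SE 0.16) with an edgeR adjusted p of 0.000612.

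Neither the insulin receptor nor the growth hormone receptor was called. Insr had a log2 fold change of 0.02 ± 0.13 (SE) and Ghr one of -0.14 ± 0.16 (SE). Igf2 had at most 2 counts in any liver and was not tested.

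**Figure D3:**
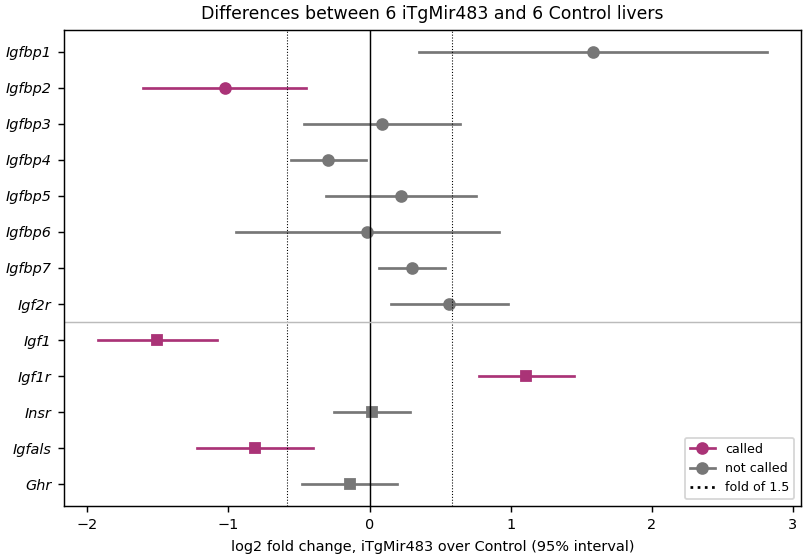
Log2 fold changes of iTgMir483 over Control livers (6 each) with 95% intervals, for the 8 genes (circles) and, under the grey line, 5 further genes of the Igf axis (squares). Dotted lines mark a fold of 1.5, and called genes are purple: Igfbp2 at -1.03, Igf1 at -1.51, Igf1r at 1.11 and Igfals at -0.81.

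Levels were compared between genes only per kilobase of merged exon. In Controls the order was Igfbp2 at 401 CPM per kilobase, Igfbp4 at 366, Igfbp1 at 101, Igfbp7 at 56.1, Igfbp3 at 8.11, Igf2r at 5.44, Igfbp5 at 1.57 and Igfbp6 at 1.03. The ranges over livers overlapped between Igfbp2 and Igfbp4, between Igfbp1 and Igfbp7, between Igfbp3 and Igf2r, and between Igfbp5 and Igfbp6, so the order within those pairs is not resolved. In iTgMir483 livers the order on the same scale was Igfbp1 at 303, Igfbp4 at 299, Igfbp2 at 197, Igfbp7 at 69.2, Igfbp3 at 8.62, Igf2r at 8.05, Igfbp5 at 1.84 and Igfbp6 at 1.03. Igfbp1 was first by its mean only, which replicate 4 carries, and exceeded Igfbp4 in 1 of the 6 livers. The ranges over iTgMir483 livers also overlapped between Igfbp4 and Igfbp2, between Igfbp3 and Igf2r, and between Igfbp5 and Igfbp6. The order within those pairs is not resolved there either. With the longest transcript as the length, Igfbp4 came first in iTgMir483 livers at 344 CPM per kilobase.

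Summed over Igfbp1 to Igfbp6, the high-affinity binding proteins, the level was 586 CPM per kilobase in the lowest Control liver, 883 at the median and 1150 in the highest, and 407, 758 and 1408 in the iTgMir483 livers. The 2 groups overlapped throughout, and what differed was the makeup of the sum. The share of Igfbp2 was 44.9% ± 5.36 in Controls and 26.0% ± 9.12 in iTgMir483 livers (SD, n = 6), with the highest iTgMir483 liver at 34.3% below the lowest Control at 36.8%. The share of Igfbp1 was 11.1% ± 4.29 in Controls and 31.5% ± 17.9 in iTgMir483 livers, from 7.51% in replicate 1 to 62.2% in replicate 4. Igfbp4 held 42.8% ± 6.98 in Controls and 41.0% ± 15.0 in iTgMir483 livers. Shares within a sum depend on each other, and these are given as a description with no test.

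Set against Igf1 on the same per-kilobase scale, the summed binding protein RNA was 13.7 to 36.2 times the Igf1 RNA in Controls, 23.1 ± 8.65 on average (SD, n = 6), and 32.1 to 98.3 times in iTgMir483 livers, 59.6 ± 25.9. The ratio was above every Control in 5 of the 6 iTgMir483 livers. These ratios are of RNA in liver and do not measure proteins in the circulation. Since whole liver was sequenced, fewer cells of a type and less RNA per cell cannot be told apart in any of these levels.

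**Figure D4:**
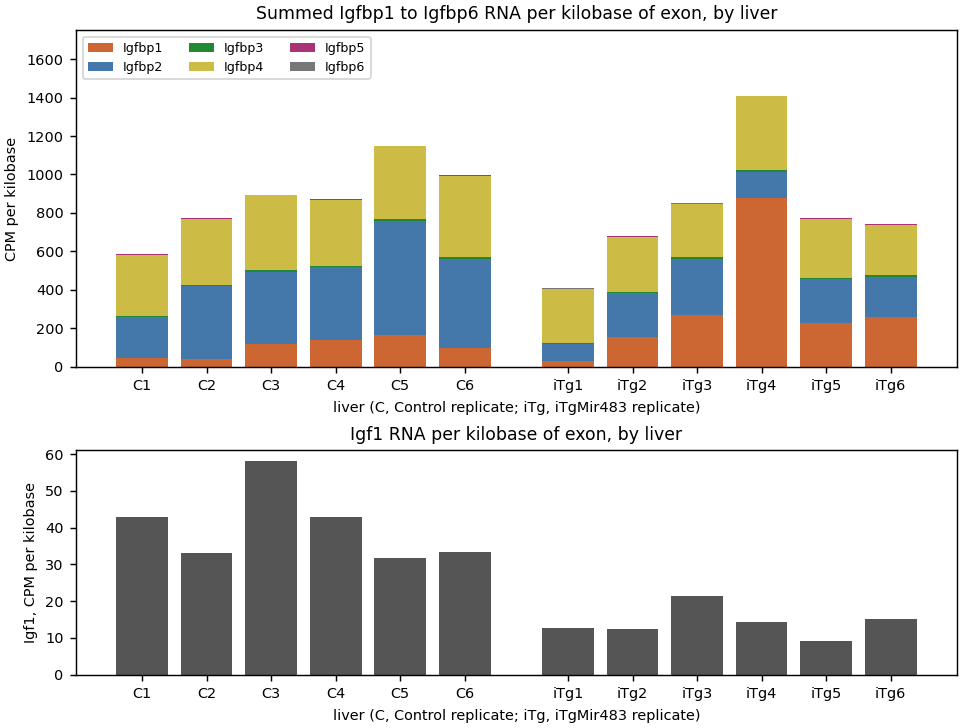
Upper panel, stacked bars of Igfbp1 to Igfbp6 in CPM per kilobase of exon for each liver. Lower panel, Igf1 on the same unit. The total overlaps between groups (586 to 1150 against 407 to 1408) while Igfbp1 makes up 62.2% of the bar of iTgMir483 replicate 4 and Igf1 is at most 21.4 in iTgMir483 livers against at least 31.8 in Controls.

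Igfbp1 with Igfbp3 and Igfbp2 with Igfbp5 are ancient gene pairs that lie tail to tail, 3539 bases apart on chromosome 11 and 5457 bases apart on chromosome 1. Within a liver, the difference between neighbours is free of library scaling. The log2 CPM of Igfbp2 minus that of Igfbp5 was 6.27 ± 0.778 in Controls and 5.01 ± 0.337 in iTgMir483 livers (SD, n = 6), a change of -1.26 (two-sided exact permutation test over all assignments of 6 of the 12 livers, p = 0.0130, adjusted over the 2 pairs 0.0260), with 2 iTgMir483 livers below every Control. For Igfbp1 minus Igfbp3 the values were 2.44 ± 0.657 and 3.63 ± 1.12, a change of 1.19 (exact permutation p = 0.0519, adjusted 0.0519), with 4 iTgMir483 livers above every Control. The smallest p this design allows is 0.00216. In this test the pair of Igfbp2 and Igfbp5 passed a threshold of 0.05 and the pair of Igfbp1 and Igfbp3 did not.

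Genes related to the 8 by function were then counted. Of 15 listed proteases that cleave Igf binding proteins and their inhibitors, 9 were tested and 1 was called, with a median log2 fold change of 0.20. It was Plau, urokinase, which rose by 0.71 on the log2 scale (SE 0.23, adjusted p 0.0404 by edgeR) from 1.38 to 2.30 CPM, a call that was lost under 11 of the 19 other settings. Pappa, Pappa2, Stc1 and Stc2, the best known Igfbp proteases and their inhibitors, had too few counts to be tested. Of 11 listed proteins with an Igfbp-like domain, such as Ccn1 and Ccn2, 6 were tested and 0 called, with a median log2 fold change of 0.38. Of 18 genes that tag lysosomal enzymes with mannose 6-phosphate or sort them with Igf2r, 1 was called, Plin3, once described as a carrier of the receptor's tail and better known as a lipid droplet coat protein. It rose by 0.61 (log2, SE 0.14, adjusted p 0.00933 by edgeR), while the median log2 fold change of the 18 was 0.02. Of the same list, Ap1g1 at -0.56 (adjusted p 0.00474 by edgeR), Snx1 at 0.37 (0.0104) and Gnptab at 0.35 (0.0332) passed on p and missed the fold limit. M6pr, the other mannose 6-phosphate receptor, had a log2 fold change of 0.11 ± 0.08 (SE) and was not called.

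Igfbp1 is a textbook target of Foxo1 and of the amino acid response. Of 11 other genes that insulin represses through Foxo1 or that report on that pathway, 0 were called by edgeR, with a median log2 fold change of 0.06. Pck1, the gluconeogenic enzyme, had a log2 fold change of 0.13 ± 0.24 (SE) and G6pc, which releases glucose, one of -0.22 ± 0.32 (SE). Irs2, an adaptor of the insulin receptor, at 0.53 ± 0.17 (SE, adjusted p 0.0456 by edgeR), and Cited2, a transcriptional co-regulator, at 0.56 ± 0.16 (SE, adjusted p 0.0228), passed on p and missed the fold limit. Foxo1 itself was at -0.71 ± 0.27 (SE, adjusted p 0.0766 by edgeR). Of 12 listed genes of the Atf4 and amino acid response, 9 were tested and 2 called, both higher, with a median log2 fold change of 0.32. These were Atf3, a stress-induced transcription factor, at 1.59 ± 0.38 (SE, adjusted p 0.0102 by edgeR), and Vldlr, a lipoprotein receptor, at 1.24 ± 0.31 (SE, adjusted p 0.0142). Atf4 itself, at 0.32 ± 0.15 (SE), was not called, nor were Fgf21 at 0.79, Trib3 at 0.74 and Chac1 at 0.21. Sesn2 at -0.36, Ddit3 at -0.23 and Psat1 at -0.16 had the opposite sign and were not called either. Asns, Phgdh and Slc7a11 had too few counts to be tested.

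Markers of some liver cell types were called between the groups, and those of others were not. Of 10 Kupffer cell and macrophage markers, 9 were called higher, with a median log2 fold change of 1.06, and they summed to 361 to 531 CPM in Controls and 552 to 1607 CPM in iTgMir483 livers. The 4 with the smallest p were Csf1r, Cd68, Lyz2 and Clec4f, at log2 fold changes of 1.09, 0.71, 1.15 and 0.72. Of 7 tested bile duct markers 4 were called higher, Spp1, Muc1, Epcam and Krt7, with sums of 39.4 to 64.4 CPM in Controls and 76.7 to 119.6 CPM in iTgMir483 livers. Of 10 hepatocyte markers, Fgb was called higher and Cps1 lower, with a median log2 fold change of -0.33 and sums of 140421 to 190165 CPM in Controls and 81151 to 152131 CPM in iTgMir483 livers. Most of these sums was Alb, at 111914 CPM on average in Controls and 76071 CPM in iTgMir483 livers, which was not called. The lowest sum was that of iTgMir483 replicate 1, the liver with the least Igfbp1, Igfbp2 and Igfbp3. The next lowest, 89296 CPM, was that of iTgMir483 replicate 4, the liver with the most Igfbp1. Hepatic stellate and endothelial cells, the usual sources of Igfbp7 and Igfbp3, had 0 of 12 and 0 of 12 markers called, with median log2 fold changes of 0.36 and -0.03 and sums of 376 to 513 against 452 to 580 CPM and of 462 to 552 against 455 to 569 CPM. Stellate Hgf (0.57 on the log2 scale, adjusted p 0.00556 by edgeR) and endothelial Pecam1 (0.42, 0.0239) and Eng (0.28, 0.0266) passed on p and missed the fold limit. So did the hepatocyte marker Cyp2e1, at -0.43 on the log2 scale (adjusted p 0.0404 by edgeR). No mesothelial (3 tested) or smooth muscle marker (4 tested) was called. What part these cell types had in the values of the 8 genes was not tested.

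Across the 12 livers, after each group's mean was subtracted, the 8 genes did not vary as a block. The log2 CPM of Igfbp3 went with that of Igfbp1 (Pearson r = 0.76) and Igfbp2 (r = 0.70), and that of Igfbp6 went against Igfbp4 (r = -0.77) and Igfbp1 (r = -0.68). Among 10554 genes, those closest to each, by the same measure, were Srrm4 (0.98), Ablim3 (0.95) and Alg8 (0.94) for Igfbp1, and Sparcl1 (0.94), Elovl2 (0.94) and Slco1a4 (0.93) for Igfbp2. For Igfbp3 they included Nedd9 (0.94) and Hnrnpa1 (0.90), and for Igfbp4 Hpd (0.91), Wbp11 (0.90) and Serpina3n (0.88). For Igfbp5 they were Synj2 (0.90), Tanc1 (0.87) and Chd8 (0.85), and for Igfbp6 Nmt2 (0.94), Adra1a (0.94) and Zfp367 (0.89). For Igfbp7 they were Arf2 (0.94), Fbln5 (0.91) and Slc25a4 (0.89), and for Igf2r Ccdc157 (0.94), Phlpp1 (0.94) and Rnf20 (0.93). These coefficients are the highest of many over 12 livers and are given as a description only. Those of Igfbp6 rest on 3 to 41 counts per library, with the fewest in iTgMir483 replicate 4, the liver with the most Igfbp1.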

How the data were processed

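The authors sequenced liver mRNA (TruSeq Stranded, paired-end, NovaSeq), aligned the reads with STAR to GRCm38 with Ensembl gene models and deposited raw gene-level counts for 12 livers in 1 table. Which strand column was taken is not stated. All 12 columns matched a sample label. Here, genes were filtered with filterByExpr, scaled by TMM and fitted in R 4.3.3 with edgeR 4.0.16 (glmQLFit and glmQLFTest, iTgMir483 against Control, no covariate), with adjusted p over all genes tested. Scripts were tested on simulated data. DESeq2 1.42.0, limma-voom (limma 3.58.1), other scaling, other filters, a replicate block and leaving out livers were the alternatives. Log2 CPM for pairs used a prior count of 2. Library totals are in the report. Exon lengths and UTRs were taken from a GENCODE annotation of GRCm38, and microRNA and promoter sequences from RefSeq.

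The 8 genes and the other gene lists were chosen with earlier results of these data known. Besides the 8, genes were named by a rule: Mir483, the Igf axis, the 3 genes most alike to each of the 8 (mean count of at least 50), and of every other list those called, or the 4 with the smallest p. Genes outside that rule that are named as examples of a list, such as Pck1, Irs2, Foxo1, Atf4 and M6pr, were chosen for their textbook role or p with their values known. A gene that the rule names for likeness to Igfbp3 is not reported here.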

Additional observations from a re-analysis of the deposited data

Results flagged for a closer look

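Within each group of 6 livers, a value was set apart when its gap to the nearest liver as a share of the group's range exceeded Dixon's 95% limit for 6 values. Of 49 such groups, 4 had one, where chance alone gives about 2.45. Igfbp1 in iTgMir483 replicate 4 was at 1335 CPM against 46.7 to 412.2 in the other 5, a gap of 0.716 of the range. In the same liver the summed Kupffer cell markers were at 1607 CPM against 552.1 to 915.6, a gap of 0.655. Igfals in iTgMir483 replicate 3 was at 71.9 CPM against 39.6 to 50.8, also a gap of 0.655. Igf1r in Control replicate 2 was at 5.75 CPM against 4.02 to 4.32, a gap of 0.823.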

How the results depend on the processing

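Igfbp2 was called under all 19 alternatives. Igfbp1 was called under 3 of 19: with a replicate block (1.21 on the log2 scale, adjusted p 0.0326), without replicate 1 of both groups (1.67) and without iTgMir483 replicate 1, and leaving out single livers gave 0.90 to 1.82. Igf2r was called under 2 of 19, without iTgMir483 replicate 2 or 4, and ranged from 0.46 to 0.70 over single livers left out. The other 5 of the 8 were not called under any. For Igfbp1 minus Igfbp3 the change was 0.83 to 1.49 with single livers left out. Its exact permutation p was under 0.05 without Control replicate 4 (1.33), Control replicate 5 (1.31) or iTgMir483 replicate 1 (1.49). With the replicate block the change was 1.19 (exact sign flips, p = 0.0312, the smallest p that sign flips allow here). For Igfbp2 minus Igfbp5 the replicate block left -1.26 at p = 0.0625 by exact sign flips, and the cause was not tested. Since the replicate numbers do not pair the livers, these sign flips do not decide which pair of genes changed. With adjusted p alone, 2457 genes passed, 968 of them lower, by construction.

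The replicate numbers do not pair the livers by the labels, and same-numbered livers had correlations of their deviations between 0.034 and 0.440, with only replicate 1 correlating best with its own number in both groups. Among the other genes named, Plau lost its call under 11 alternatives, Plin3 under 5, Timd4 and Marco under limma-voom, and Cd68 and C1qa without iTgMir483 replicate 4. Depth limits Igfbp6, at 3 to 41 counts per library.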
